A study of Rattus norvegicus with 12 samples.

Results

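The genes described here are the rat transporters that move sugars, amino acids, monocarboxylates, chloride, phosphate, zinc and related solutes across membranes. They were taken from the array annotation by name: every gene whose symbol is Slc1a, Slc2a, Slc3a, Slc5a, Slc6a, Slc7a, Slc12a, Slc16a, Slc30a, Slc34a, Slc38a, Slc39a or Slc43a followed by digits. The rule itself used no measured value, but the members and the lists of partner genes were chosen with earlier results of these data known. It found 105 genes in 13 families, out of 14217 genes on the array. They were read by 142 probe sets, and 28 of the 105 genes had more than 1 probe set, whose values were averaged.

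The study measured gene expression on Affymetrix arrays in the abdominal mammary gland. The animals were female rats of the Sprague-Dawley strain, in 4 groups of 3 pools each. All rats lost their ovaries, and with them most of their own estrogen, on postnatal day 50 and were killed on day 64. From day 30 onward their diet held either casein (a protein of milk) or soy protein isolate (SPI), and for the 14 days after surgery they received 17β-estradiol (E2) by mini-osmotic pump or vehicle. The groups are called soy and casein here, each without or with E2. The labels of the estradiol group without soy name no diet, and it was read as casein-fed from the treatment description. The labels do not give the number of rats in a pool, and nothing in them says that pools came from separate rats, so p-values measure only the spread between pools. A further label field mentions hepatic expression, although the source field gives mammary gland for every sample.

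In the mammary gland, milk is made by epithelial cells that take up glucose, amino acids and ions from blood and pass phosphate, zinc, lactose and protein into the lumen. Estrogen drives growth of the epithelial ducts, while fat, vessels and immune cells make up much of the rest of the gland. Transporters sit on particular faces of the epithelial cell or on its internal vesicles, and many are shared with fat cells and other cell types. Solute carriers of 1 family share ancestry and often, but not always, their substrates.

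The deposited values are centred on the median of the 12 arrays for each probe set and are read as log2, so 1 unit is a 2-fold change and 0 is a gene's middle value. No absolute level can be read from them, and no gene's level is set against another's. Pools 2 and 3 of casein plus E2 could hardly be told apart: the SD of their difference over probe sets was 0.163, with 0 probe sets differing by more than 1, against 0.302 and 355 for the next closest pair. They were counted as 1 sample, so 11 samples entered each fit. Casein pool 3 stood apart with liver transcripts, where the mean of 10 liver markers was 5.75, against -0.456 to 0.302 on the other arrays. Casein pool 2 and soy pool 2 stood apart with skeletal muscle transcripts, at marker means of 3.44 and 3.72. The 12 arrays were also split at 0 by the mean of 30 spike-in control probe sets, which put 6 on a high and 6 on a low side. The means ran from 0.06 to 0.686 on the high side, highest in casein pool 2, and from -0.125 to -0.038 on the low side. All 3 casein pools lay on the high side and soy pools 2 and 3 on the low side.

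The mammary label was checked against its markers. The 6 milk genes lay between -3.02 and -0.596 on average in vehicle pools and between 0.515 and 1.35 in E2 pools, and all 6 rose. Among the markers of luminal epithelium, 5 of 10 rose and 1 fell (median 0.84), and among those of basal epithelium 4 of 8 rose and 0 fell (median 0.64). Of 9 adipocyte markers 6 fell (median -1.05), as did 5 of 6 mast cell, 3 of 5 endothelial, 3 of 3 erythroid and 1 of 5 macrophage markers. In bulk tissue fewer cells of a type and less RNA per cell cannot be told apart, and the part of these markers in the transporter results was not tested.

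Of the 105 genes, 6 passed the test for estradiol averaged over both diets (limma, described with the results) with a change of at least 2-fold, and a promoter window of 250 bases is shown for 5 of them, because these are the largest responses with an entry in the sequence table. The remaining gene is Slc39a14. The sequences are from RefSeq on build GRCr8, written 5′ to 3′ on the strand of the gene, and capitals mark the motifs given after them. Each window ends just before the start site used by that table, which is not always the outermost end of the gene in the GRCr8 gene table. The site lies at that end for Slc30a4 and 92 bases inside it for Slc7a10. It lies 9.95 kb inside the gene for Slc34a2, 84.5 kb for Slc39a8 and 56.6 kb for Slc16a7, so the windows of these 3 genes are internal to them. The Slc34a2 window is chr14:62143073-62143322 on the minus strand and that of Slc39a8 is chr2:226929941-226930190 on the plus strand. The Slc30a4 window is chr3:130228889-130229138 on the minus strand. For Slc7a10 it is chr1:96965872-96966121 on the plus strand, and for Slc16a7 it is chr7:63040399-63040648 on the minus strand.
Slc34a2: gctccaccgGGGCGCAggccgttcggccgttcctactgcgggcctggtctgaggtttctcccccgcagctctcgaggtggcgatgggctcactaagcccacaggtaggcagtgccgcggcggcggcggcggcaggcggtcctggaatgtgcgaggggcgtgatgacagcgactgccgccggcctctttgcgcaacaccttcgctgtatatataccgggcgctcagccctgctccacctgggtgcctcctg
Slc39a8: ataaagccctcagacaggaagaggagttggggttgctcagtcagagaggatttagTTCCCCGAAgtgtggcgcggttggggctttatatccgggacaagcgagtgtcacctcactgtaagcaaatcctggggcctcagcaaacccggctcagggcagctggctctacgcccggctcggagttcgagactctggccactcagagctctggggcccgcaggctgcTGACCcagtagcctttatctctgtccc
Slc30a4: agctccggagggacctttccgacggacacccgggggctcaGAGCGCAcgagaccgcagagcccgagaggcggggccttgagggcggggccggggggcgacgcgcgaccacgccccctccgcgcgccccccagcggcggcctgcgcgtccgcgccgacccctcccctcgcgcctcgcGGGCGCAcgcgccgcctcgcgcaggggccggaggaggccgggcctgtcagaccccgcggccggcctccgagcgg
Slc7a10: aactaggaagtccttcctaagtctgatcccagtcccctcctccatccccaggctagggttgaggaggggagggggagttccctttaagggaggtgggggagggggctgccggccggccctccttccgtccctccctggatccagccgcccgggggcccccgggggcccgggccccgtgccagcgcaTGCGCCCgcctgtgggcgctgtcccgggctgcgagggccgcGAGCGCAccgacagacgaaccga
Slc16a7: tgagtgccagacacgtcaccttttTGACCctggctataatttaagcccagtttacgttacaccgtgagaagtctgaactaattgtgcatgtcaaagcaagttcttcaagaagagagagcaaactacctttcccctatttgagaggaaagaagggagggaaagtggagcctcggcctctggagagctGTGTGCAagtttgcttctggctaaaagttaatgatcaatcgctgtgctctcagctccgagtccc

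Motifs were searched as letters on both strands. Transporter promoters were counted as 1 window per gene. All promoters were counted by distinct window, without a limit of 1 per gene, so the shares are not in the same unit. The full estrogen response element, GGTCANNNTGACC, was in 0 of the 83 transporter promoters that the table holds and in 0.0239% of all 33465 promoters. Its half-site, GGTCA, which lies within the full element, was in 38.6% of the transporter promoters and 35.4% of all promoters, and in those shown it occurs once each in Slc39a8 and Slc16a7. The Stat5-type motif TTCNNNGAA, the kind of site bound by the prolactin signal transducer, was in 2.41% against 7.67%, and Slc39a8 holds 1. The metal response element core, bound by a zinc-sensing factor, was searched in 2 forms. TGCACNC was in 13.3% against 10.3%, with 1 match in Slc16a7. TGCGCNC was in 24.1% against 11.8%, with 1 match in Slc34a2, 2 in Slc30a4 and 2 in Slc7a10. A match says only that the letters are present in the window.

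The first comparison asked what estradiol did to the transporters, as the mean of its effect in both diets. The sodium-phosphate cotransporter gene Slc34a2 rose most, and the zinc transporter genes Slc39a8, Slc30a4 and Slc39a14 followed. Genes for uptake of glucose, of branched and aromatic amino acids and of chloride (Slc2a1, Slc7a5 with its partner Slc3a2, and Slc12a2) rose by smaller amounts. The genes that fell most encode carriers of monocarboxylates (Slc16a7), small neutral amino acids (Slc7a10), inositol (Slc2a13) and glutamine (Slc1a5).

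In all, 12 of 105 transporter genes rose and 9 fell, which is 11.4% and 8.57% of them, against 6.73% and 5.51% of all genes. A gene is called here when its Benjamini-Hochberg adjusted p over all 14217 genes is under 0.05 in limma, and 12.2% of all genes were called, against 20.0% of the transporter genes. Because the members were chosen with earlier results of these data known, these shares are not an independent comparison. The median change was 0.00 over the transporter genes and 0.00 over all genes. In 13 transporter genes (12.4%) the E2 samples, with casein plus E2 pools 2 and 3 averaged, did not overlap the 6 vehicle pools, against 6.88% of all genes. The 84 genes that were not called ranged from -0.89 for Slc6a14 to 0.78 for Slc38a3, and 57 of them lay within 0.2 of no change. Without its pool 1, the casein plus E2 group held 1 sample, because pools 2 and 3 count as 1. No count of calls is given for that fit. Nor is a count given without casein pools 2 and 3 and soy pool 2 together, which left 1 casein sample. All 21 called genes had the same sign in each diet, which choosing genes by their average over diets favours. Of these genes 6 had several probe sets, and only Slc5a3 had a probe set of the other sign. Leaving out casein plus E2 pool 2 or pool 3 kept the other of them as a sample, so those fits still held 11 samples. When single arrays were left out, 6 of the 21 (Slc2a3, Slc30a4, Slc34a2, Slc39a8, Slc39a14 and Slc43a1) passed every time. The calls of Slc1a5, Slc5a3 and Slc6a4 were each lost in 8 of 12 such fits. That of Slc7a10 was lost in 7, and those of Slc2a5 and Slc3a2 in 6 each.

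**Figure D1:**
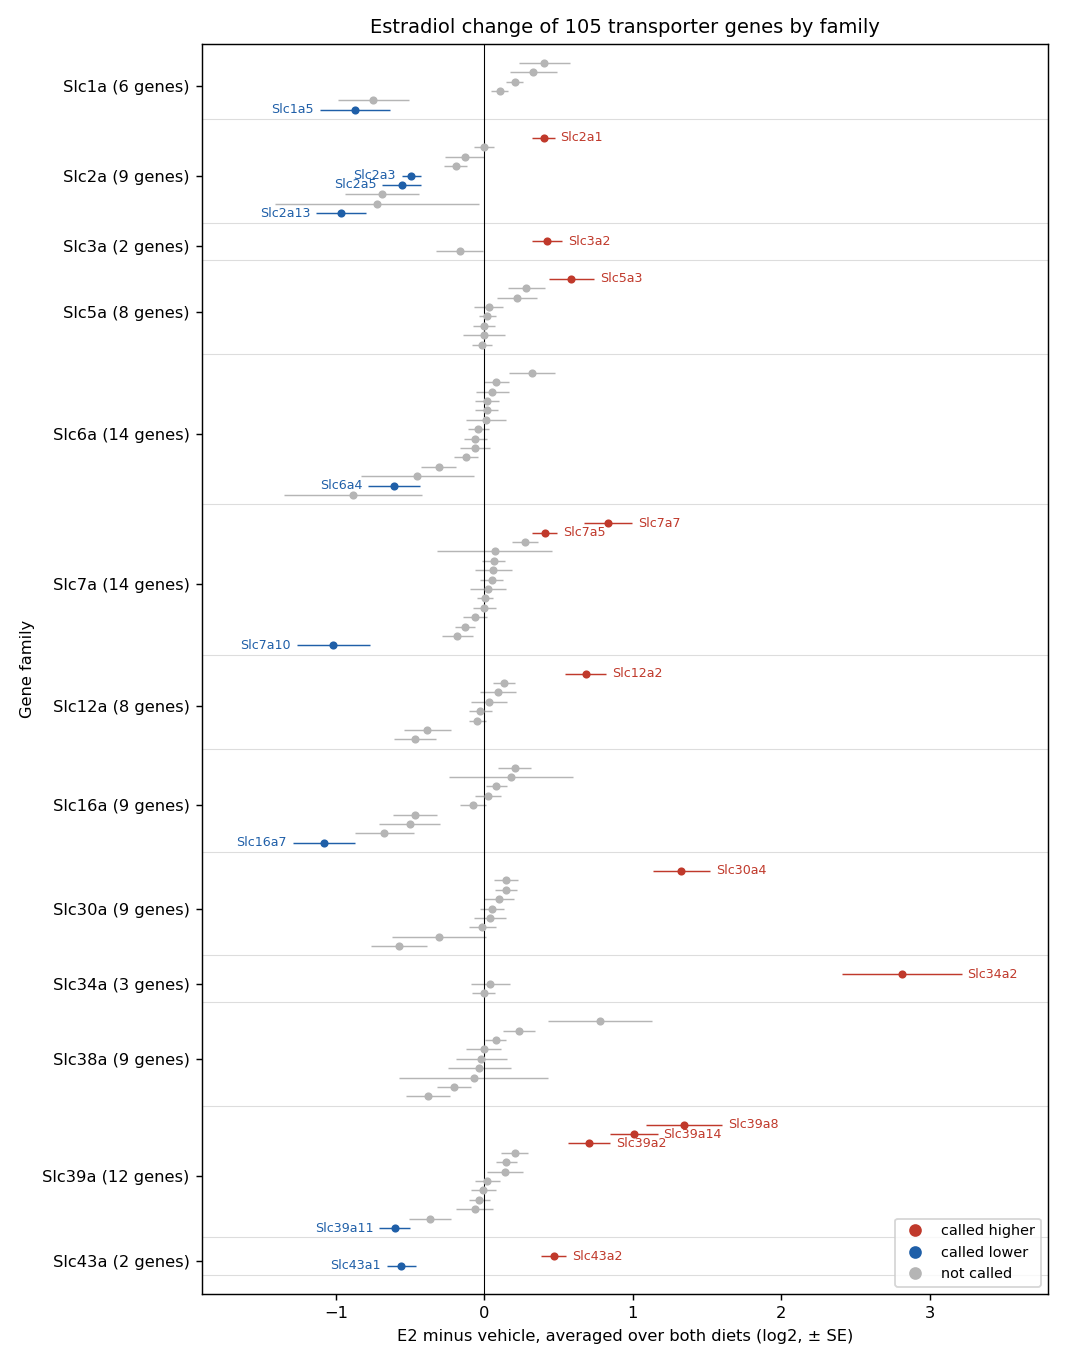
Estradiol minus vehicle averaged over both diets (log2, horizontal axis, bars are ± 1 standard error of the fit) for each of the 105 transporter genes, set out by family, with called genes in red (higher) or blue (lower) and the others in grey. Slc34a2 stands alone at 2.81, and the called genes of the Slc2a, Slc7a, Slc39a and Slc43a families lie on both sides of 0.

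Phosphate was the solute with the largest single response. Slc34a2 encodes the cotransporter NaPi-IIb, found on the luminal face of the lactating mammary epithelium. It read -0.39, -1.93 and -0.10 in the casein pools, 2.59, 2.40 and 2.46 with casein plus E2, -0.92, -0.82 and -1.83 in the soy pools, and 1.68, 1.56 and 0.10 with soy plus E2. Every E2 pool lay above every vehicle pool, though soy plus E2 pool 3 cleared the highest casein pool by little. The change was 2.81 ± 0.40 (SE; adjusted p = 0.00747), and this gene is read by a single probe set. The kidney-type cotransporter genes of the same family were flat on this scale, with Slc34a1 at -0.01 ± 0.08 and Slc34a3 at 0.04 ± 0.13, and neither passed.

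Among 19 measured partners in calcium and phosphate handling, 4 rose and 0 fell (median 0.11). The rise was largest for Atp2c2, the secretory pathway calcium pump of mammary epithelium, at 1.66 ± 0.26 (adjusted p = 0.00919). The others were the alkaline phosphatase gene Alpl (0.80), the calcium channel gene Orai1 (0.41) and the Golgi calcium pump gene Atp2c1 (0.23).

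Zinc carriers come in opposing families. Slc30a proteins move zinc out of the cytosol into vesicles or out of the cell, and Slc39a proteins move it into the cytosol. Of the 21 genes in both families 4 rose and 1 fell, with a median of 0.05.

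Slc30a4 encodes ZnT4, whose loss in the lethal milk mouse leaves milk poor in zinc. Its values were -0.26, -0.46 and -0.09 in casein pools, 0.92, 1.09 and 1.17 with casein plus E2, -0.50, -0.45 and -0.81 in soy pools, and 1.0, 1.23 and 0.09 with soy plus E2. The groups with and without E2 did not overlap. The gene rose by 1.33 ± 0.19 (adjusted p = 0.00758), and its probe sets gave 1.14 and 1.51. Of the other 8 Slc30a genes none was called. They include Slc30a2, the ZnT2 gene linked to zinc in human milk, at 0.14 ± 0.07 (adjusted p = 0.234), with probe sets at -0.00 and 0.29. The plasma membrane zinc exporter gene Slc30a1 was at -0.57 ± 0.19 (adjusted p = 0.0772).

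On the import side Slc39a8, Slc39a14 and Slc39a2 rose and Slc39a11 fell. Slc39a8 encodes ZIP8, which carries zinc and manganese, and read -0.61, -1.10 and -0.03 in casein pools, 0.60, 1.18 and 1.41 with casein plus E2, -0.54, -0.46 and -0.73 in soy pools, and 0.48, 1.24 and 0.03 with soy plus E2. No E2 pool lay below a vehicle pool, and the change was 1.34 ± 0.25 (adjusted p = 0.0152). Slc39a14 encodes ZIP14, a carrier of zinc, manganese and iron, and read -0.61, -0.61 and 0.03 in casein pools, 0.77, 0.53 and 0.63 with casein plus E2, -0.64, -0.44 and -0.53 in soy pools, and 0.56, 0.67 and -0.03 with soy plus E2. The groups overlapped through a single pair, casein pool 3 and soy plus E2 pool 3. Its change was 1.01 ± 0.16 (adjusted p = 0.00992), with probe sets at 1.38 and 0.63.

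Slc39a2, for the importer ZIP2, ranged from -0.50 to -0.07 in vehicle pools and from 0.07 to 0.84 in E2 pools, a change of 0.71 ± 0.14 (adjusted p = 0.0185). Slc39a11, for the intracellular carrier ZIP11, went the other way. It ranged from 0.05 to 0.59 in vehicle pools and from -0.60 to -0.05 in E2 pools, and fell by 0.60 on the log2 scale (SE 0.10, adjusted p = 0.0117). Neither gene's groups overlapped. The other 8 Slc39a genes did not pass. Among 7 measured zinc partners 1 rose, the metallothionein gene Mt2A (1.39 ± 0.34, adjusted p = 0.0327), whose product binds zinc. By diet its change was 0.56 ± 0.51 with casein, where the pools overlapped, and 2.22 ± 0.46 with soy, where they did not. The difference between the diets did not pass (1.66 ± 0.69, adjusted p = 0.754).

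**Figure D2:**
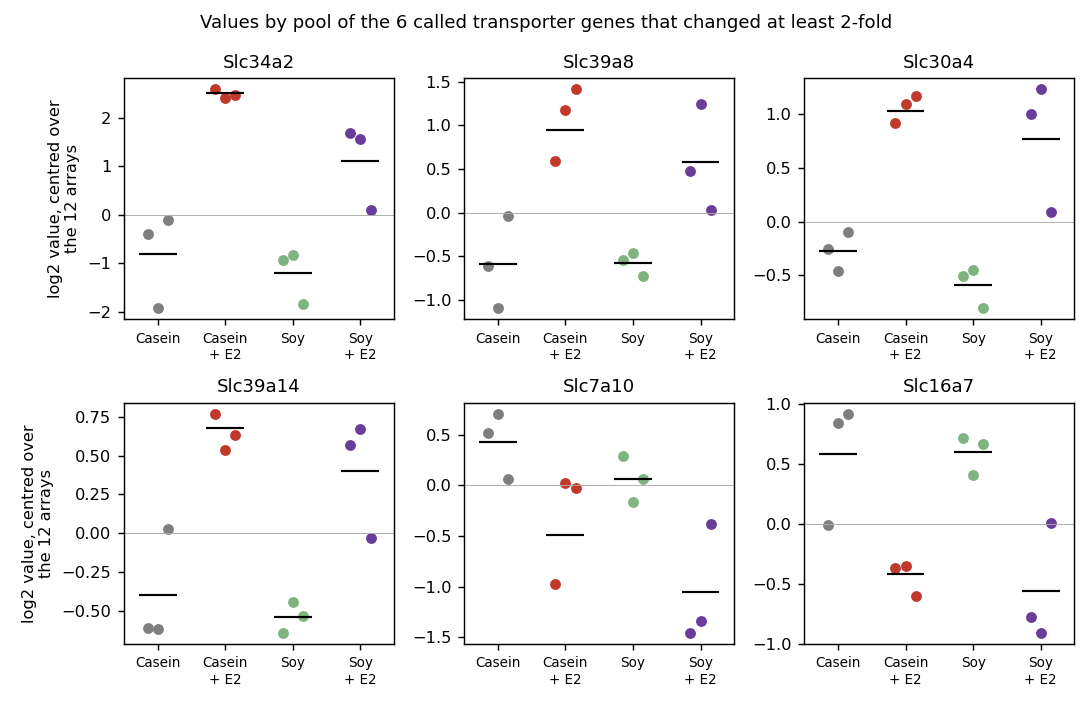
Values of the 6 called genes that changed by at least 2-fold (log2, centred over the 12 arrays, vertical axis), with 1 point for each pool in the 4 groups and a bar at the group mean, where casein plus E2 pools 2 and 3 count once. In Slc34a2, Slc39a8, Slc30a4 and Slc39a14 soy plus E2 pool 3 is the lowest E2 pool, at 0.10, 0.03, 0.09 and -0.03.

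Sugar carriers did not move one way. In the Slc2a family of facilitated sugar carriers 1 of 9 genes rose, 3 fell and 5 did not pass. The family median was -0.49, against 0.00 over all genes. That median counts Slc2a2 (-0.72, not called), which read 4.33 on the liver-marked casein pool 3 and at most 0.13 on every other array. Slc2a1 encodes GLUT1, the main glucose carrier of mammary epithelium. Its values were -0.05, -0.15 and -0.04 in casein pools, 0.34, 0.43 and 0.30 with casein plus E2, -0.05, -0.32 and -0.16 in soy pools, and 0.22, 0.31 and 0.04 with soy plus E2. All E2 pools lay above all vehicle pools, and the rise was small at 0.40 ± 0.07 (adjusted p = 0.0149).

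Slc2a3 encodes GLUT3, a high-affinity glucose carrier of neurons and blood cells. It read 0.31, 0.26 and 0.29 in casein pools, -0.51, -0.27 and -0.34 with casein plus E2, 0.13, 0.11 and 0.16 in soy pools, and -0.25, -0.18 and -0.05 with soy plus E2. The pools within each vehicle group were close together, and the groups with and without E2 did not overlap. The gene fell by 0.49 on the log2 scale (SE 0.06), and its adjusted p of 0.00506 was the smallest of the 105. Both probe sets were lower with E2, by -0.74 and -0.24, of which the second did not pass on its own (adjusted p = 0.0766).

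Slc2a13 encodes the proton-coupled inositol carrier HMIT. It ranged from 0.12 to 0.84 in vehicle pools and from -0.84 to -0.17 in E2 pools without overlap, and fell by 0.96 (SE 0.17, adjusted p = 0.0124). Slc2a5, for the fructose carrier GLUT5, read 0.17, 0.18 and -0.25 in casein pools, -0.45, -0.02 and 0.10 with casein plus E2, 0.23, 0.02 and 0.19 in soy pools, and -0.77, -0.96 and -0.49 with soy plus E2. Its lowest pools were those of soy plus E2, while the casein groups overlapped. The averaged change was -0.56 ± 0.13 (adjusted p = 0.0274).

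Slc2a4, for the insulin-responsive carrier GLUT4 of fat and muscle, was at -0.69 ± 0.25 and did not pass (adjusted p = 0.101). In the Slc5a family of sodium-coupled carriers 1 of 8 genes was called. This was Slc5a3, for an inositol carrier (0.59 ± 0.15, adjusted p = 0.038), but its probe sets disagreed, at -0.04 and 1.22. The call was lost in 8 of 12 fits that left out 1 array, and with the spike-in side as a term. The sodium-iodide symporter gene Slc5a5, which concentrates iodide for milk, was at 0.28 ± 0.12 (adjusted p = 0.167). Of 12 measured genes of sugar use and lactose synthesis, 2 rose and 0 fell (median -0.21). They were the lactose synthase genes Lalba (1.05) and B4galt1 (0.25).

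**Figure D3:**
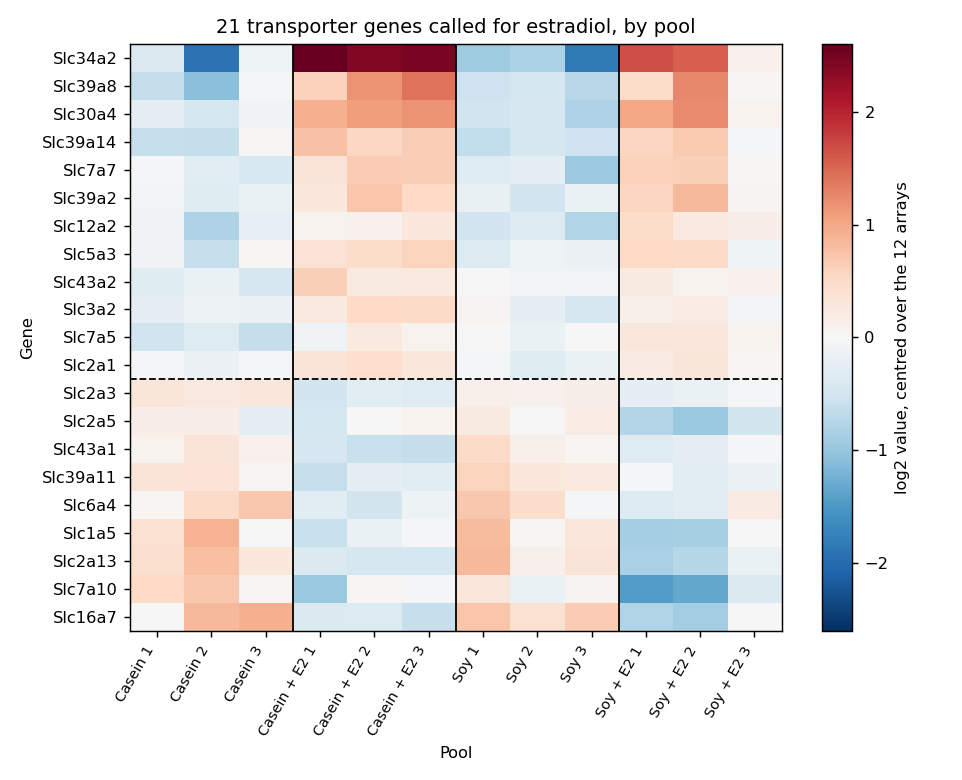
Values by pool (log2, centred over the 12 arrays, colour scale) of the 21 transporter genes called for estradiol, with genes in rows ordered by their change and pools in columns by group. The rows above the broken line are higher in E2 pools and those below it are lower, and the column of soy plus E2 pool 3 is the palest of the E2 columns.

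Amino acid carriers of the Slc1a, Slc3a, Slc7a, Slc38a and Slc43a families number 33, of which 4 rose and 3 fell (median 0.02). Slc7a5 and Slc3a2 encode the chains of LAT1, the exchanger that brings in large neutral amino acids such as leucine. Slc3a2 also pairs with Slc7a7, whose product y+LAT1 exports cationic amino acids. All 3 genes rose. Slc7a7 read -0.04, -0.29 and -0.39 in casein pools, 0.34, 0.66 and 0.64 with casein plus E2, -0.34, -0.26 and -0.94 in soy pools, and 0.60, 0.62 and 0.04 with soy plus E2. The groups with and without E2 did not overlap, and the change was 0.83 ± 0.16 (adjusted p = 0.0161).

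Slc7a5 read -0.52, -0.34 and -0.62 in casein pools, -0.08, 0.26 and 0.09 with casein plus E2, -0.00, -0.18 and 0.00 in soy pools, and 0.29, 0.27 and 0.09 with soy plus E2. Within each diet all E2 pools lay above the vehicle pools, but the soy vehicle pools reached above casein plus E2 pool 1. The change was 0.41 ± 0.08 (adjusted p = 0.0188). Slc3a2 read -0.26, -0.14 and -0.15 in casein pools and 0.25, 0.53 and 0.49 with casein plus E2, and 0.06, -0.23 and -0.43 in soy pools against 0.12, 0.20 and -0.06 with soy plus E2. Its groups overlapped in the soy-fed rats, and the averaged change was 0.42 ± 0.10 (adjusted p = 0.029).

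The Slc43a family, which also carries large neutral amino acids but without exchange, has 2 genes on the array, and they moved in opposite directions. Slc43a2, for LAT4, read -0.32, -0.18 and -0.43 in casein pools, 0.62, 0.24 and 0.24 with casein plus E2, -0.00, -0.06 and -0.08 in soy pools, and 0.23, 0.09 and 0.12 with soy plus E2. It rose by 0.47 ± 0.08 (adjusted p = 0.013). Slc43a1, for LAT3, read 0.09, 0.33 and 0.12 in casein pools, -0.43, -0.57 and -0.62 with casein plus E2, 0.49, 0.12 and 0.05 in soy pools, and -0.33, -0.23 and -0.05 with soy plus E2. It fell by 0.56 (SE 0.10, adjusted p = 0.0134). In neither gene did the E2 pools overlap the vehicle pools.

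Slc7a10 and Slc1a5 fell, both with wide spread. Slc7a10 encodes Asc-1, an exchanger of small neutral amino acids known from neurons and fat cells. It read 0.52, 0.71 and 0.06 in casein pools, -0.97, 0.02 and -0.02 with casein plus E2, 0.29, -0.16 and 0.07 in soy pools, and -1.45, -1.34 and -0.38 with soy plus E2. The values of 3 E2 pools stood far below the rest, and the groups overlapped near 0. The change was -1.02 ± 0.25 (adjusted p = 0.03), and the call was lost in 7 of 12 fits that left out 1 array.

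Slc1a5, for the glutamine carrier ASCT2, read 0.39, 0.91 and -0.01 in casein pools, -0.59, -0.17 and -0.06 with casein plus E2, 0.83, 0.04 and 0.29 in soy pools, and -0.88, -0.86 and 0.01 with soy plus E2. The groups overlapped through casein pool 3 and soy plus E2 pool 3. Its change was -0.87 ± 0.24 (adjusted p = 0.0435), and it did not pass with the spike-in side as a term. Beside both genes, the adipocyte markers averaged 0.01 to 0.93 in vehicle pools and -1.40 to 0.09 in E2 pools, and the part of fat in these values was not tested.

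None of the 9 Slc38a genes, carriers of glutamine and alanine, was called for estradiol averaged over diets. Slc38a2, for the widely expressed SNAT2, was at 0.08 ± 0.07. Slc38a3, for SNAT3, was at 0.78 ± 0.35 (adjusted p = 0.173), with casein pool 3, the liver-marked pool, at 1.34 and the other vehicle pools between -0.86 and -0.59. Without that pool its change was 1.12 ± 0.13 and passed (adjusted p = 0.00698). The glutamate carrier gene Slc1a2 did not overlap between pools with and without E2, yet missed the threshold at 0.20 ± 0.06 (adjusted p = 0.0509). Another glutamate carrier gene, Slc1a3, was at -0.75 ± 0.24 (adjusted p = 0.0701).

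Among 17 measured genes of amino acid sensing and response 1 rose and 1 fell. Ggt1, whose product helps reclaim amino acids from glutathione, rose by 1.81 ± 0.27 (adjusted p = 0.0083). The stress factor gene Ddit3 fell by 0.46 (SE 0.09, adjusted p = 0.0167).

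Chloride, monocarboxylate and neurotransmitter carriers gave 1 call in each family. Slc12a2 encodes NKCC1, which loads chloride across the basolateral face of secretory epithelia. It read -0.10, -0.80 and -0.21 in casein pools, 0.10, 0.12 and 0.28 with casein plus E2, -0.49, -0.35 and -0.78 in soy pools, and 0.48, 0.26 and 0.18 with soy plus E2. No pools overlapped between E2 and vehicle, and the rise was 0.68 ± 0.14 (adjusted p = 0.0187). The other 7 Slc12a genes did not pass. Among 11 measured kinases, ubiquitin ligase components and chloride channels that regulate or act with chloride cotransport, 2 rose and 0 fell: the kinase gene Wnk2 (0.60) and the chloride channel gene Ano1 (1.38). In the list of 9 genes for the sodium gradient and water 4 rose and 0 fell (median 0.70). They were the water channel genes Aqp5 (1.37) and Aqp3 (0.78), the sodium channel gene Scnn1g (0.85) and the sodium pump regulator gene Fxyd3 (0.78).

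Slc16a7 encodes MCT2, a high-affinity carrier of lactate and pyruvate. It read -0.01, 0.84 and 0.92 in casein pools, -0.37, -0.35 and -0.60 with casein plus E2, 0.72, 0.41 and 0.67 in soy pools, and -0.78, -0.91 and 0.01 with soy plus E2. Only casein pool 1 and soy plus E2 pool 3 overlapped, and the fall of 1.08 (SE 0.21, adjusted p = 0.0165) was the largest of the 9 falls. The ubiquitous lactate carrier gene Slc16a1 was at -0.08 ± 0.09, and 0 of 7 partners in monocarboxylate use passed in either direction.

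Slc6a4 encodes the serotonin transporter. It ranged from -0.05 to 0.70 in vehicle pools and from -0.48 to 0.21 in E2 pools, and its change of -0.61 ± 0.17 (adjusted p = 0.0486) did not pass under either other normalization. Beside it, the mast cell markers averaged 0.22 to 0.95 in vehicle pools and -1.54 to -0.24 in E2 pools, and their part in the change was not tested. Slc6a14, an amino acid carrier of epithelia, was at -0.89 ± 0.46 (adjusted p = 0.242) with a wide spread, from -0.18 to 1.91 in vehicle pools and from -0.50 to 1.41 in E2 pools.

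Soy plus E2 pool 3 lay between the groups. In 15 of the 21 called genes it was the E2 pool nearest the vehicle side, and in 19 of 21 it was the nearest of the soy plus E2 pools. The SD over the 105 genes was 0.201 on this array, against 0.379 to 0.414 on the other E2 arrays. Some cell type markers of this pool lay nearer the vehicle side too, but not all. Its milk marker mean was 0.515 against 1.04 to 1.35 on the other E2 arrays, and its luminal mean was 0.0436 against 0.339 to 0.542. Its adipocyte mean was 0.086 against -1.4 to -0.408, and its mast cell mean was -0.239 against -1.54 to -0.561. For other lists another E2 array lay nearer the vehicle side. The basal mean was 0.132 in this pool and -0.141 in soy plus E2 pool 1. Erythroid and macrophage means were -0.546 and -0.15 in this pool, and -0.0968 and 0.237 in casein plus E2 pool 1. The part of cell types in the transporter values was not tested.

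The second question was whether the estradiol response held within each diet. In casein-fed rats Slc34a2 and Slc43a2 rose and Slc2a3 and Slc43a1 fell. In soy-fed rats no transporter gene passed, although Slc34a2, Slc30a4 and Slc39a8 each stood at over 1 on the log2 scale. All 21 genes called for the average had the same sign in both diets. Genes chosen by that average are likely to share a sign, so this does not test the response within each diet.

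With casein, 4 of 105 genes (3.81%) were called, against 2.43% of all genes, and 26.7% had an unadjusted p under 0.05, against 19.6% of all genes. The changes were 3.31 ± 0.60 for Slc34a2 (adjusted p = 0.034), 0.74 ± 0.12 for Slc43a2 (0.0303), -0.69 ± 0.09 for Slc2a3 (0.0165) and -0.70 ± 0.15 for Slc43a1 (0.0469). None of these 4 calls held whichever array was left out. Without casein plus E2 pool 1 that group held 1 sample, so no count is given. Leaving out casein pool 1 or casein pool 2 took the number called to 0 (0.12% and 0.0844% of all genes). It was 1 without soy pool 2 (0.478% of all genes) and 2 without the second pool of soy plus E2 (0.985%). It was 7 without casein plus E2 pool 2 (2.64% of all genes), where pool 3 stayed in as a sample. Without soy pool 1 it was also 7 (3.46%), and without the third pool of soy plus E2 it was 9 (4.15%).

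With soy, 0 of 105 genes were called in limma, against 0.218% of all genes, and 28.6% had an unadjusted p under 0.05, against 20.6% of all genes. The smallest adjusted p was 0.0734, for Slc30a4, at 1.36 ± 0.26. Slc34a2 was at 2.31 ± 0.54 (adjusted p = 0.0905), Slc39a8 at 1.16 ± 0.34 (0.124), Slc7a7 at 0.93 ± 0.22 (0.0905) and Slc2a5 at -0.88 ± 0.17 (0.0766). Without soy plus E2 pool 3 the number called was 15, while the share of all genes called went from 0.218% to 5.35%. Among them were Slc30a4 (1.70 ± 0.16), Slc34a2 (2.81 ± 0.50) and Slc39a2 (0.99 ± 0.16), and Slc16a7 at -1.44 ± 0.25 and Slc2a13 at -1.22 ± 0.21.

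The difference between the diets in the estradiol change was tested directly, and 0 of 105 transporter genes passed in limma, against 0% of all genes. An unadjusted p under 0.05 was found for 4.76% of them and for 6.53% of all genes. The smallest adjusted p among them, 0.542, was that of Slc38a2, at 0.58 ± 0.14. Its values were 0.24, -0.01 and 0.06 in casein pools, -0.05, -0.26 and -0.09 with casein plus E2, -0.13, 0.01 and -0.18 in soy pools, and 0.29, 0.20 and 0.29 with soy plus E2. All 3 soy plus E2 pools lay above the soy pools, while the casein plus E2 pools lay below the casein pools. Next came Slc43a2, with a difference of -0.55 ± 0.17 (adjusted p = 0.604), and Slc2a3, with 0.40 ± 0.13. Both had changed less in soy-fed than in casein-fed rats by value, and neither difference passed. Slc34a2 differed by -1.01 ± 0.81.

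**Figure D4:**
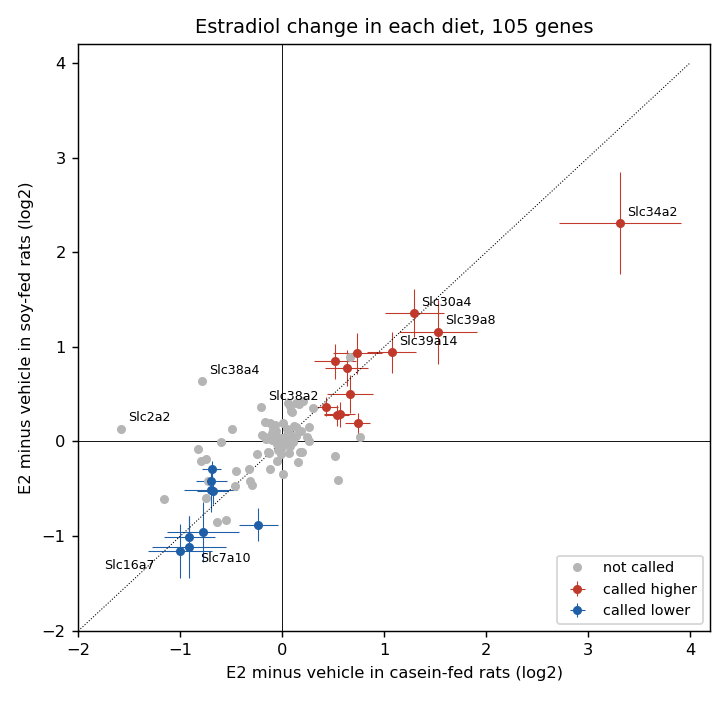
Estradiol minus vehicle in casein-fed rats (horizontal axis, log2) against the same in soy-fed rats (vertical axis, log2) for the 105 transporter genes, with bars of ± 1 standard error on the genes called for the average (red higher, blue lower) and a dotted line of equal change. The groups on each axis share no pools, and Slc34a2 sits at 3.31 and 2.31.

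The third question was what soy did to the same genes, without and with estradiol. No transporter gene passed in either setting. The changes nearest the threshold were those of Slc7a5, the LAT1 gene, without estradiol and of Slc38a2 with it.

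Without estradiol, 0 of 105 genes were called for soy against casein in limma, as were 0% of all genes. An unadjusted p under 0.05 was found for 1.9% of the transporter genes and 10.4% of all genes. The changes ranged from -1.60 for Slc2a2 to 1.18 for Slc16a6, and 34 of 105 were above 0, against 48.5% of all genes (medians -0.04 and -0.01). Slc7a5 was higher in all 3 soy pools, at -0.18 to 0.00, than in the casein pools, at -0.62 to -0.34, a difference of 0.43 ± 0.11 with an adjusted p of 0.398. Both ends of the range lie in genes that follow particular arrays, as given next.

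Slc2a2, for the liver glucose carrier GLUT2, read 4.33 in casein pool 3 and at most 0.13 on every other array. Slc38a4 (2.70, against at most 0.49), Slc6a13 (2.37, against at most 0.11) and Slc30a10 (1.84, against at most 0.08) stood out on the same array, where the liver marker mean was 5.75. Slc38a4 and Slc6a13 encode carriers of amino acids and of GABA and related solutes, and Slc30a10 a manganese exporter, all known from liver. Without that pool the soy difference was -0.19 ± 0.11 for Slc2a2, -0.05 ± 0.28 for Slc38a4, -0.16 ± 0.12 for Slc6a13 and 0.11 ± 0.10 for Slc30a10. No transporter gene stood out in this way on casein pool 2 or soy pool 2 alone. Muscle markers were high on both of these arrays, so a gene high on both would be missed by this rule. Whether any transporter gene follows muscle content was not tested.

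Slc16a6, Slc7a11 and Slc38a1 split by the spike-in side. Slc16a6, of the monocarboxylate family, lay between -1.13 and -0.20 on the 6 high spike-in arrays and between 0.23 and 1.21 on the 6 low ones. Slc7a11, for the cystine-glutamate exchanger, lay between -0.80 and -0.37 and between 0.37 and 1.27, and Slc38a1, for the glutamine carrier SNAT1, between -0.36 and -0.16 and between 0.14 and 0.83. None of the 3 overlapped between the sides. The share of all genes that split in this way was not counted, so the number of transporter genes cannot be set against it. All 6 measured lymphocyte markers split the same way, with a mean of -1.78 to -1.08 on the high and 0.783 to 2.49 on the low arrays. The soy differences without estradiol were 1.18 ± 0.56, 1.12 ± 0.52 and 0.61 ± 0.28 for Slc16a6, Slc7a11 and Slc38a1. With the spike-in side as a term they were 0.28 ± 0.34, 0.19 ± 0.19 and 0.13 ± 0.14. Without soy pool 1, the only soy pool without estradiol on the high side, Slc16a6 was called, at 1.95 ± 0.30 (adjusted p = 0.0418). It was the only 1 of the 105 transporter genes called in that fit, where 2.3% of all genes were called. The part of lymphocytes in these values was not tested.

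**Figure D5:**
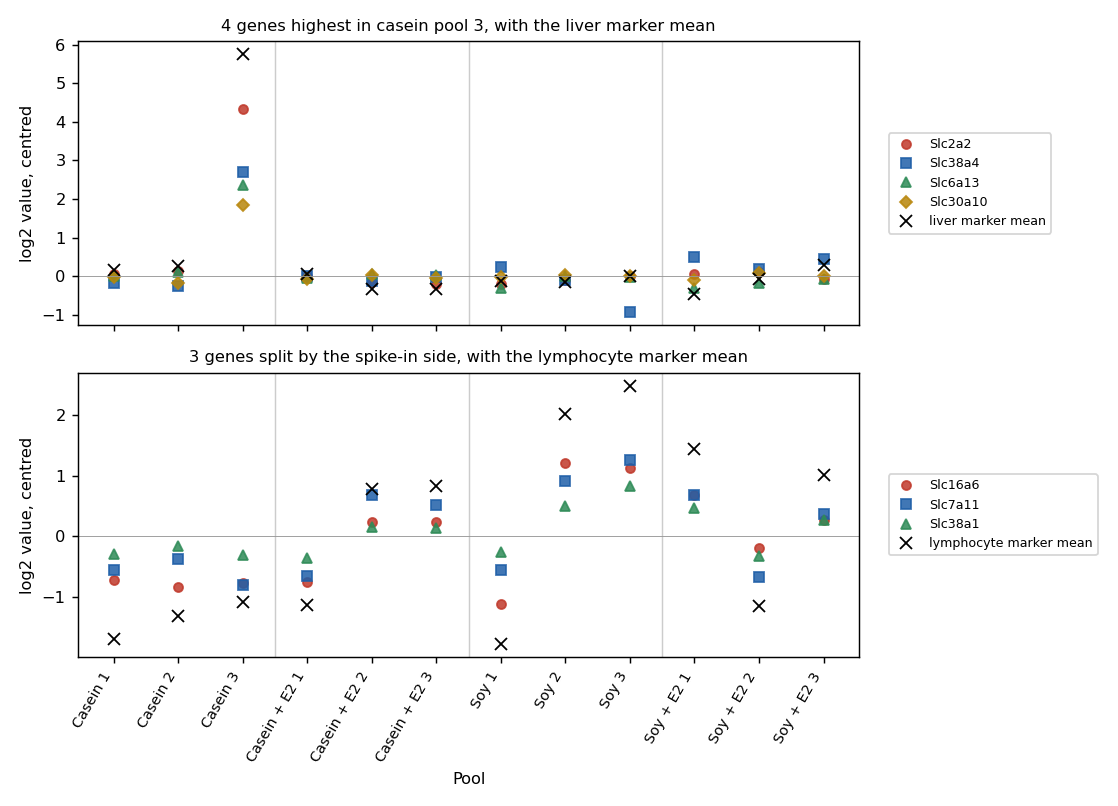
Values by pool (log2, centred over the 12 arrays, vertical axis) of the 4 transporter genes highest in casein pool 3 with the liver marker mean (top), and of the 3 that split by spike-in side with the lymphocyte marker mean (bottom), with crosses for the marker means. In the top panel only casein pool 3 lies far above 0, with Slc2a2 at 4.33, and in the bottom panel the 6 high spike-in arrays lie below 0 and the 6 low ones above it.

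With estradiol in both groups, 0 of 105 genes were called for soy against casein in limma, against 0.00703% of all genes. An unadjusted p under 0.05 was found for 6.67% of the transporter genes and 5.1% of all genes. Changes ranged from -1.39 for Slc34a2 to 0.54 for Slc6a14. The smallest adjusted p was 0.645, for Slc38a2, which was higher in all soy plus E2 pools than in all casein plus E2 pools, with a difference of 0.38 ± 0.10. Slc34a2 was lower in all 3 soy plus E2 pools, at 0.10 to 1.68, than in the casein plus E2 pools, at 2.40 to 2.59, and the difference of -1.39 ± 0.60 did not pass (adjusted p = 0.977).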

How the data were processed

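The authors deposited 1 table of 31099 probe sets on 12 arrays. The submitters' processing notes name GCOS, the Affymetrix array software, and the summarisation, scaling and base of the logarithm were not stated in the labels or the table. The range of the deposited values (at most 9.85 within a probe set) was taken to show a log2 scale. Every probe set had a median of 0, so neither levels nor detection could be used. Biotin-labelled RNA was made from 8 µg of total RNA, per the labels' protocols.

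Of the probe sets, 20826 carried 1 gene in the platform annotation, 436 carried several and 9780 were unnamed here, besides 57 controls. All 105 members matched the GRCr8 gene table. Group means of the 4 groups were fitted to all 14217 genes over 11 samples, without a variance trend or a filter (limma 3.58.1 in R 4.3.3). The 6 contrasts had two-sided tests with Benjamini-Hochberg adjustment, and errors are standard errors of the fit. The code was tested on simulated data.

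The members, gene lists and tests were chosen with earlier results of these data known. Genes to name were those called in any contrast, the 2 highest and 2 lowest of each family, 14 mammary transporters, genes standing out on a tissue-marked array, and called list partners. The text prints most of these, and Slc7a11, Slc38a1 and Slc1a2 were named after their values were seen. Alternatives were 2 normalizations, other probe set rules, only the groups compared, separate arrays, a block for pool number, array weights, a 1.5-fold minimum, the spike-in side as a term, and arrays left out.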

Additional observations from a re-analysis of the deposited data

Results flagged for a closer look

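Slc38a2, the gene of the amino acid carrier SNAT2, stood out because its estradiol change pointed in opposite directions in the 2 diets. All soy plus E2 pools lay above the soy pools, and all casein plus E2 pools lay below the casein pools. The estradiol change was -0.21 ± 0.10 with casein and 0.36 ± 0.09 with soy, a difference of 0.58 that limma's interaction test did not call (Benjamini-Hochberg adjusted p = 0.542). Neither change passed within its diet (adjusted p = 0.299 and 0.103).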

How the results depend on the processing

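Among the 58 named genes no call reversed in any refit on gene values. With every probe set tested by itself, 22 genes were called for the estradiol average in place of 21, and 12.6% of all genes were called. Among the 21, 6 genes had several probe sets, and only Slc5a3 had a probe set of the other sign. Leaving out casein plus E2 pool 1 left that group 1 sample. Leaving out casein pools 2 and 3 and soy pool 2 together left 1 casein sample. Counts from these fits are left out for the estradiol average and for casein-fed rats. With any other single array left out, the count for the estradiol average was 14 (4.52% of all genes) to 27 (16.4%). It was 30 with array weights (23.3% of all genes) and 14 with a 1.5-fold minimum (6.05%). The spike-in term left 21 (13.4%), of which 18 were the same genes. Pool numbers gave no steady pairing over the 4 groups: deviations of same-numbered pools correlated at -0.42 to 0.46, with 5 of 18 pairs over 0.1. Between casein plus E2 and soy they were positive at every pool number (0.46, 0.24 and 0.216), and a pairing of these groups was not tested. The replicate block by pool number needed 12 separate arrays. It gave 25 genes for the average (14.4% of all genes) and 12 for casein-fed rats (5.77%). With 12 separate arrays and no block the counts were 27 (18.6%) and 18 (9.63%). For casein-fed rats the count of 4 became 8 with quantile normalization (4.42% of all genes) and 15 with array weights (9.9%). It was 0 to 9 when 1 array other than casein plus E2 pool 1 was left out. With only the groups compared it was 2 (1.41% of all genes), and 0 of these were among the 4. For soy-fed rats the count of 0 became 6 with quantile normalization (1.65% of all genes), 4 with separate arrays (1.59%), 21 with array weights (14.3%) and 0 to 15 with 1 array left out. Soy without E2 gave 7 with array weights (11.2% of all genes) and 0 to 1 with 1 array left out, in place of 0. The 1 came without soy pool 1, where 2.3% of all genes were called. Soy with E2 and the difference between diets gave 0 under every alternative run. The cause of these shifts was not tested. With 11 samples and centred values, the number of arrays limits precision, and no probe set's signal over background could be checked.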
